A study of Mus musculus with 3 samples.

Results

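The CTCF peaks of LSK cells were examined around 5 microRNA genes that are known from blood cells: Mir142, Mir150, Mir155, Mir144 and Mir451a. LSK cells are the Lin-, Sca1+, cKit+ cells of adult mouse bone marrow, a population that holds hematopoietic stem cells and early progenitors. They were sorted from C57BL6 mice, which the study's methods describe as male, as cells negative for CD4, CD8, IL7Ra, CD11b, Ly6g, CD45R and Ter119. No gene was altered and no treatment was given. CTCF was mapped by ChIP-seq in 1 library, with no replicate. The inputs of LSK cells and of MEP cells (megakaryocyte erythroid progenitors, sorted as Sca1- cells) were not analysed here. A peak was taken when its nearest base lay within 50 kb of the nearest base of a microRNA gene record in GENCODE M21, the annotation of the mm10 genome. This gave 11 of the 18945 peaks in the library. The list gives no read counts, so the depth behind a peak is unknown. Peaks do not measure RNA or the surface markers of the sort, so neither the levels of these microRNAs nor the LSK label could be checked.

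A microRNA is cut from a hairpin in a longer transcript and then guides the silencing of messenger RNAs, mainly through its seed, the short stretch near its 5′ end. The 5 genes represent different branches of blood formation. miR-142 is made in nearly all blood cells, miR-150 is abundant in mature lymphocytes, and miR-155 is induced in activated lymphocytes and macrophages. miR-144 and miR-451a are made together from 1 transcript in red cell precursors. miR-451a is matured by the nuclease Ago2 and not by Dicer. CTCF, a DNA-binding protein with zinc fingers, is known at insulators and domain boundaries, and pairs of CTCF sites whose motifs point toward each other are often found at the ends of chromatin loops.

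The mature sequences found for these genes differ in their seeds. They are given 5′ to 3′ as RefSeq has them for GRCm38.p6, with the seed (bases 2 to 8) in capitals. The 8 arms found in the table have 8 different seeds. The arm miR-150-5p is named only, and its seed was not compared.
miR-142a-5p (Chromosome 11): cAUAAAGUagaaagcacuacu
miR-142a-3p (Chromosome 11): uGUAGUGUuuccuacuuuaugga
miR-150-3p (Chromosome 7): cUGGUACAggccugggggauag
miR-155-5p (Chromosome 16): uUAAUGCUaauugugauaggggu
miR-155-3p (Chromosome 16): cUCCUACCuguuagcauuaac
miR-144-5p (Chromosome 11): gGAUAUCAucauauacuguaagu
miR-144-3p (Chromosome 11): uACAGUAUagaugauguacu
miR-451a (Chromosome 11): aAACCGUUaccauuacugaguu

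CTCF occupied the surroundings of these genes very unequally. Mir150 had 6 peaks within 50 kb, Mir142 had 3, Mir144 and Mir451a shared the same 2, and Mir155 had 0. Thus 4 of the 5 genes had a peak, at 3 separate loci. Of the 2054 autosomal microRNA genes in the annotation 58.1% had one (95% Wilson interval 56.0% to 60.2%, counting error only). With records less than 10 kb apart counted as 1 locus, 63.2% of 1700 loci had one. Of the autosomal protein-coding genes 77.6% had one. Mir150 stood near the top of all microRNA genes by this count, with fewer peaks in 96.7% of them and more in 1.27%. For Mir142, 12.4% of microRNA genes had more peaks, and for Mir144 and Mir451a 22.4% had more. Mir155 fell among the 41.9% with no peak. None of the hairpins was itself covered by a peak, which held for all but 21 of the 2054 genes.

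**Figure D1:**
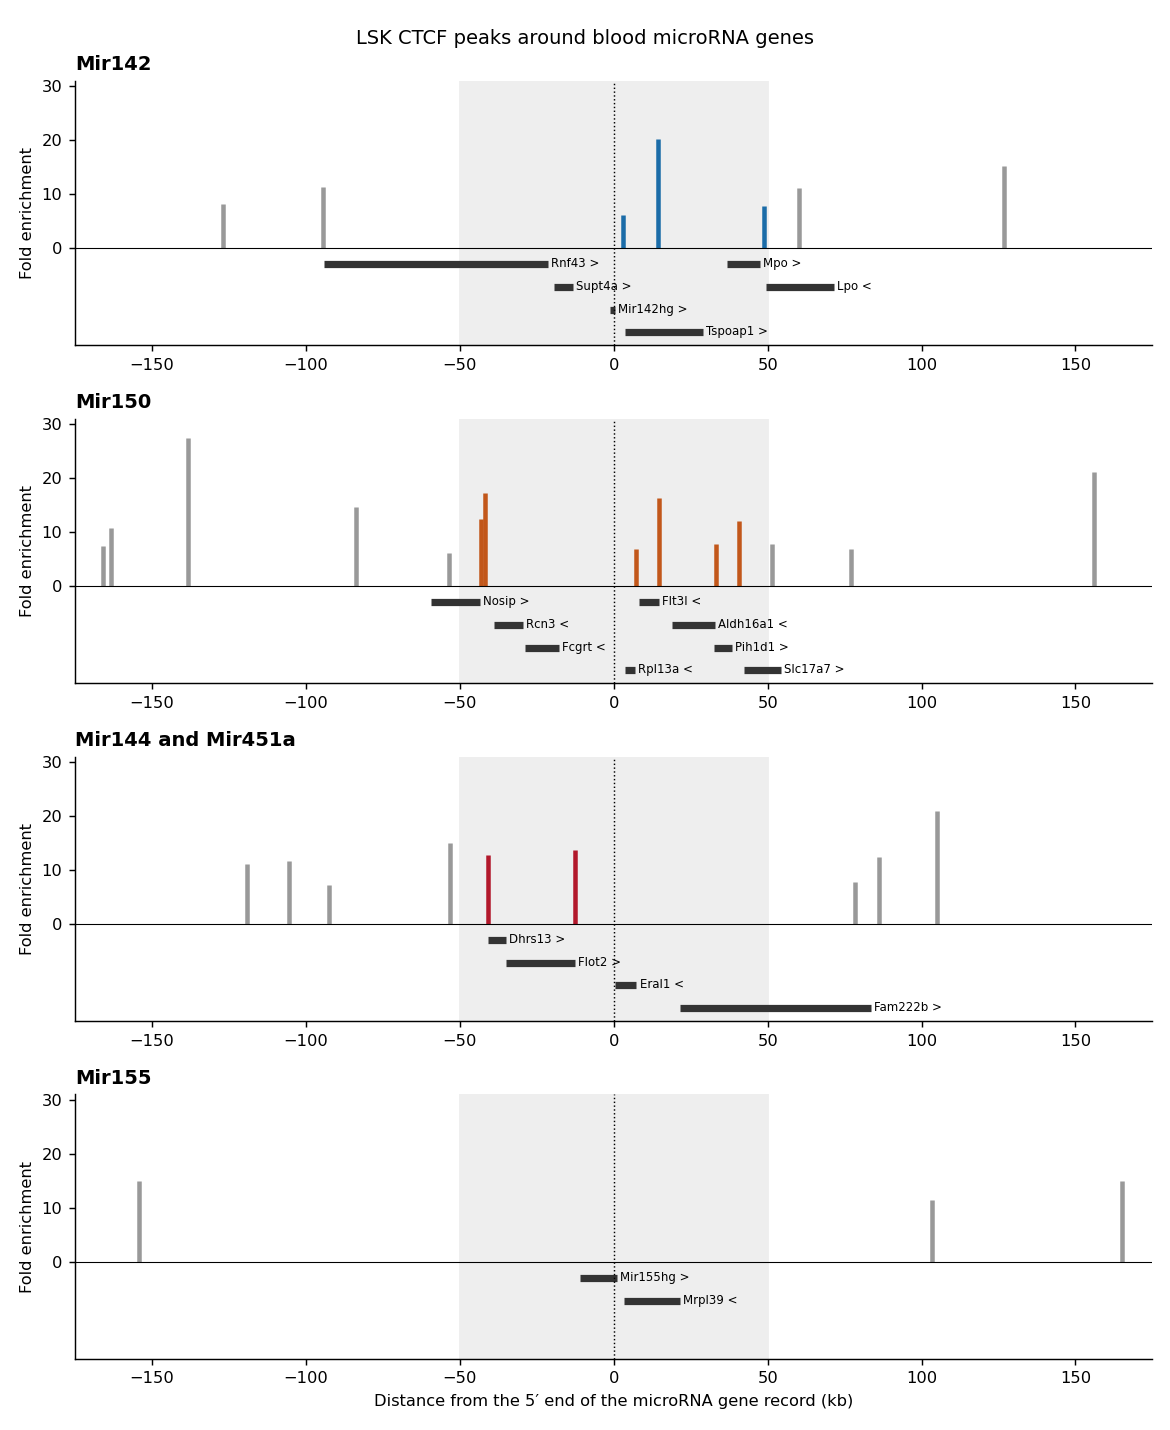
LSK CTCF peaks at the 4 loci, drawn by kb from the 5′ end of the microRNA gene record on the x axis, with deposited fold enrichment on the y axis. A bar stands for 1 peak, coloured when it lies within 50 kb and grey outside that distance. The grey band marks the 50 kb and holds 6 peaks at Mir150, 3 at Mir142, 2 at Mir144 and Mir451a and 0 at Mir155. Dark lines are those protein-coding and lincRNA genes within 50 kb that the text names, with > and < for their strand. Gm45713, which overlaps Rpl13a and Flt3l, is not drawn.

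**Figure D2:**
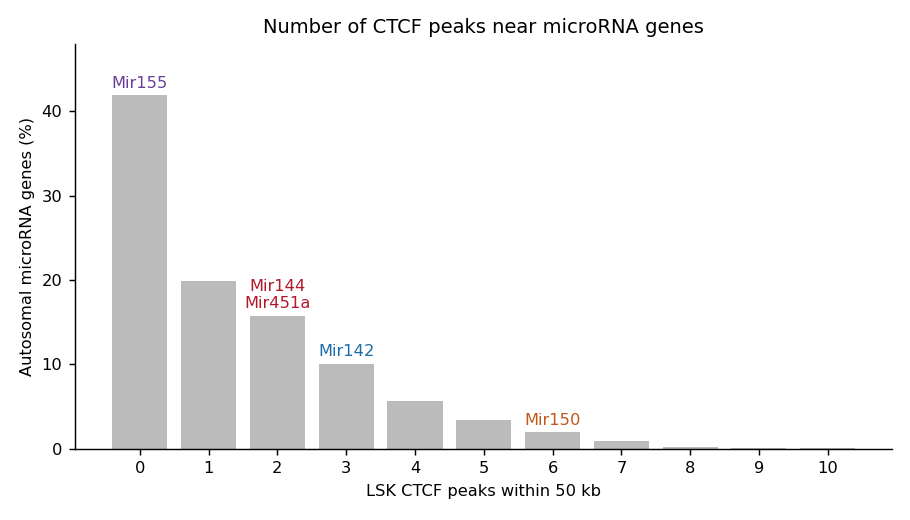
Number of LSK CTCF peaks within 50 kb (x axis) against the percent of 2054 autosomal microRNA genes (y axis). The members are written above the bar they fall in, from Mir155 among the 41.9% with 0 peaks to Mir150 among the 2.0% with 6.

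The number of peaks went with the number of protein-coding genes nearby. Mir155 had 1 protein-coding gene within 50 kb, Mir142, Mir144 and Mir451a had 5 each, and Mir150 had 10. Over all autosomal microRNA genes, 51.5% of the 937 with 1 or 2 such neighbours had a peak, 84.1% of the 509 with 3 to 5, and 92.9% of the 196 with 6 to 10. The median number of peaks in these groups was 1, 2 and 3. The part of gene density in the differences between the 5 genes was not tested.

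Mir142 and Mir150 had a peak within 10 kb, as 24.6% of autosomal microRNA genes had. The nearest peak lay 2532 bp from Mir142, 6981 bp from Mir150, 12107 bp from Mir144, 12272 bp from Mir451a and 103098 bp from Mir155. Over all autosomal microRNA genes the median distance was 34208.5 bp. A peak was nearer in 8.42% of them than at Mir142, in 19.1% than at Mir150, in 27.3% than at Mir144 and in 69.5% than at Mir155.

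**Figure D3:**
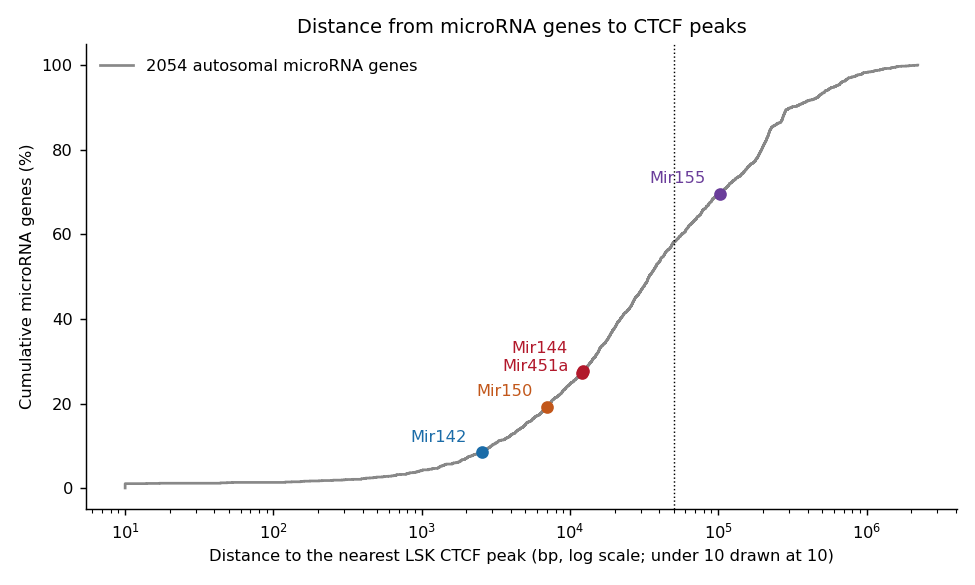
Cumulative percent of 2054 autosomal microRNA genes (y axis) by distance to the nearest LSK CTCF peak in bp on a log scale (x axis), with the limit of 50 kb dotted. Mir142 (2532 bp), Mir150 (6981 bp), Mir144 (12107 bp) and Mir451a (12272 bp) lie in the lower part of the curve and Mir155 (103098 bp) beyond the limit.

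The sequences in capitals below are the best matches to the CTCF core motif, a pattern of 12 bases, in the peaks that held it with no mismatch or with 1. The motif was searched on both strands, and each sequence is written along the strand of its motif, from mm10 coordinates. The core motif was present with no mismatch in 5 of the 11 peaks and with at most 1 mismatch in 8. Over all 18945 peaks the shares were 35.6% and 83.6%, and in windows of the same width 10 kb to either side they were 1.29% and 1.35% without a mismatch and 17.4% with at most 1. In the remaining 3 peaks the best match had 2 mismatches, a level reached by 99.0% of all peaks but also by 75.5% and 74.6% of the windows to either side, so no sequence is shown for them.
Mir142, intron of Tspoap1, no mismatch, chr11:87771165-87771224, minus strand: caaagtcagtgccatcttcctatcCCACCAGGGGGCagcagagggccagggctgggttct
Mir142, between Mpo and Lpo, 1 mismatch, chr11:87805616-87805675, plus strand: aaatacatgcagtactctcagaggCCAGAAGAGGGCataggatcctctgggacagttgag
Mir150, past the 3′ end of Nosip, no mismatch, chr7:45078682-45078741, plus strand: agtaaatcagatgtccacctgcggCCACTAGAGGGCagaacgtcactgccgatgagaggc
Mir150, between Nosip and Rcn3, no mismatch, chr7:45079999-45080058, plus strand: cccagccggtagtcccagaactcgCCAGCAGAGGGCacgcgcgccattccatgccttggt
Mir150, intron of Pih1d1, 1 mismatch, chr7:45155109-45155168, plus strand: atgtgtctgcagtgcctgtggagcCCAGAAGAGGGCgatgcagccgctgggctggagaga
Mir150, upstream of Slc17a7, no mismatch, chr7:45162354-45162413, plus strand: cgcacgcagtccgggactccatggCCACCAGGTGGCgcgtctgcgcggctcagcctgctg
Mir144 and Mir451a, start of Dhrs13, 1 mismatch, chr11:78032242-78032271, plus strand: gcaggcgcaCGCCTAGGGGGCgctcgcagg
The eighth, at the start of Flt3l near Mir150, is shown with its promoter below. In the 8 peaks with at most 1 mismatch the best match lay within 100 bp of the midpoint, as in 91.7% of all such peaks. Each of the 8 had a single best match.

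Mir142 lies on Chromosome 11 from 87756864 to 87756927 on the plus strand, inside its host gene Mir142hg, a lincRNA from 87755577 to 87757270. A further record, Mir142b, covers the hairpin on the minus strand. All 3 of its peaks were downstream of the hairpin. The nearest, from 87759459 to 87760098, was weak. It was enriched 6.20-fold over background at a −log10 p-value of 7.057, and 5.79% of all peaks had a lower fold enrichment. It lay between Mir142hg and Tspoap1, which encodes a protein that binds proteins of the synapse, 443 bp before the Tspoap1 start. The strongest peak of all 11 was the one from 87770866 to 87771424 in an intron of Tspoap1, 13939 bp from Mir142. It was enriched 20.23-fold at a −log10 p-value of 37.968, above 96.3% and 95.5% of all peaks. It was also the only one at Mir142 with the motif without a mismatch. The last peak, from 87805244 to 87805986, lay 831 bp past the 3′ end of Mpo and was enriched 7.83-fold. Mpo encodes myeloperoxidase, the main granule enzyme of neutrophils, and its neighbour Lpo encodes the related lactoperoxidase.

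On the other side of Mir142 no peak was found for 94108 bp, up to a peak over the start of Rnf43, which encodes a ubiquitin ligase that restrains Wnt signaling. That peak had a fold enrichment of 11.42. Mir142 and its host thus lay in 96702 bp without a peak, with Supt4a, a subunit of an elongation factor, as the only protein-coding gene wholly within. Such a stretch was shorter in 34.3% of the autosomal microRNA genes, over which its median was 179258 bp. The core motif occurred without a mismatch at 3 places within 50 kb of Mir142, and 1 of them was in a peak. Over the windows of all autosomal microRNA genes 36.6% of 2308 such places were in a peak, and over the autosomes 31.1%.

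Mir150 lies on Chromosome 7 from 45121757 to 45121821 on the plus strand and has no host gene record in the annotation. The nearest protein-coding gene upstream is Fcgrt, which encodes the neonatal Fc receptor, 17906 bp away on the minus strand. The nearest peak, from 45128802 to 45129390, was weak (fold enrichment 6.85, −log10 p-value 6.495) and lay 41 bp before the start of Rpl13a, a gene of the large ribosomal subunit.

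The peak from 45136170 to 45136888 covered the start of Flt3l, which encodes the ligand of the receptor Flt3 on early multilineage progenitors. It lay 14349 bp from Mir150 and was enriched 16.31-fold at a −log10 p-value of 29.363, above 88.0% and 89.7% of all peaks. The peak also covered the start of Gm45713, a protein-coding record that overlaps Rpl13a and Flt3l. The promoter of Flt3l is shown because the motif lies in it without a mismatch, 64 bp before the start and on the strand of the gene, the minus strand of Chromosome 7. Such a match was present in the 250 bases before the start in 1.28% of 32851 RefSeq promoters. This share is no measure of rarity here, as the promoter was chosen for its match under a peak. Over all peaks, 35.6% held such a match. The promoters of Dhrs13, Rpl13a and Aldh16a1, also at peaks of the 11, were searched in longer windows that ran past the start. Their best matches had 1, 2 and 2 mismatches.
Flt3l promoter, 250 bases before the start, RefSeq GRCm38.p6, chr7:45136433-45136682, minus strand, motif in capitals: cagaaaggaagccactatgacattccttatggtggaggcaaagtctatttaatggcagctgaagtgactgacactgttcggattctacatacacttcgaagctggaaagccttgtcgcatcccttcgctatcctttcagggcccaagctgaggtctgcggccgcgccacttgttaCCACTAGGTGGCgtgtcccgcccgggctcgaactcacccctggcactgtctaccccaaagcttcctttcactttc

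Further downstream of Mir150, a peak from 45154750 to 45155486 lay near the starts of Aldh16a1 (166 bp) and Pih1d1 (447 bp), which overlap on opposite strands, and was enriched 7.83-fold at a −log10 p-value of 14.482. Another from 45161931 to 45162841 lay 1108 bp before the start of Slc17a7, which encodes a glutamate transporter of synaptic vesicles, with a fold enrichment of 12.07. Upstream of Mir150 a pair of peaks stood close together past the 3′ end of Nosip. Enrichment was 12.40-fold in the one from 45078362 to 45079116 and 17.29-fold in the one from 45079596 to 45080448, the highest value at Mir150. Within 50 kb of Mir150 the motif occurred without a mismatch at 4 places, all of them in peaks, against the 36.6% over all microRNA windows.

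The stretch without a peak around Mir150 was 48353 bp long, the shortest of the 5 genes, and shorter ones were found in 17.5% of the autosomal microRNA genes. It ended at the weak peak before Rpl13a. Among the 9473 peaks with the highest −log10 p-value, Mir150 lay between the peak of fold enrichment 17.29 and the peak at Flt3l, with 55721 bp between them. Rcn3, Fcgrt and Rpl13a were among the protein-coding genes wholly within. The motif of the first peak was on the plus strand and that of the second on the minus strand, so that both pointed toward Mir150. This arrangement was common: of 997 pairs of neighbouring peaks around microRNA genes in that set, with at most 1 mismatch in both motifs, 30.7% pointed toward each other (95% Wilson interval 27.9% to 33.6%). Over all peaks no orientation was defined at Mir150, because the weak peak before Rpl13a held the motif only with 2 mismatches.

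Mir144 lies on Chromosome 11 from 78073005 to 78073070 and Mir451a from 78073170 to 78073241, both on the plus strand. Mir451b covers the Mir451a hairpin on the minus strand. Eral1, which encodes a GTPase of mitochondrial ribosome assembly, ends 135 bp past Mir451a on the minus strand. Both peaks within 50 kb were upstream. The nearer one, from 78060122 to 78060898, covered the 3′ end of Flot2, which encodes a membrane raft protein, and was enriched 13.70-fold at a −log10 p-value of 18.806. It held the motif only with 2 mismatches. The farther one, from 78031846 to 78032592, covered the start of Dhrs13, a gene of the short-chain dehydrogenase family, and was enriched 12.73-fold at a −log10 p-value of 14.819. This peak had the highest GC content of the 11, at 67.6%.

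Downstream of Mir451a no peak was found for 77753 bp, up to a weak peak (fold enrichment 7.83) in an intron of Fam222b. The stretch without a peak was 90095 bp and held Mir144, Mir451a, Mir451b and Eral1, and no other protein-coding gene wholly within. The single site of the core motif without a mismatch within 50 kb of this cluster was not in a peak.

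Mir155 lies on Chromosome 16 from 84714140 to 84714204 on the plus strand, inside its host gene Mir155hg, a lincRNA from 84703167 to 84715245. No peak lay within 50 kb of the hairpin, and the start of Mir155hg was 114135 bp from the nearest one. The window also held no site of the core motif without a mismatch. Its GC content was 41.7%, against 46.5% to 51.2% in the windows of the other 4 genes. The stretch without a peak was 257144 bp long, and 58.5% of the autosomal microRNA genes had a shorter one. Mrpl39, which encodes a protein of the mitochondrial ribosome and starts on the opposite strand, was the only protein-coding gene wholly within.

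The peaks at the ends of this stretch are shown because they bound the longest one at the 5 genes. The lower one, from 84559381 to 84560157, lay 153983 bp from Mir155 in intergenic sequence and was enriched 15.01-fold at a −log10 p-value of 23.912. The higher one, from 84817302 to 84818033, lay 103098 bp away in an intron of Jam2, which encodes a junctional adhesion protein, and was enriched 11.42-fold at a −log10 p-value of 11.838. Both motifs were on the minus strand, as in 26.4% of the 997 pairs around microRNA genes over all peaks.
Lower side of Mir155, no mismatch, chr16:84559757-84559816, minus strand: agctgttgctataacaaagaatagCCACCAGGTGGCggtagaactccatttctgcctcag
Higher side of Mir155, 1 mismatch, chr16:84817642-84817701, minus strand: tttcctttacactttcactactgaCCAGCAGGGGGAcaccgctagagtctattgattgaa

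Taking the 11 peaks as a whole, the fold enrichment ran from 6.20 to 20.23 with a median of 12.40, against 10.12 over all peaks. It was above that median in 7 and below it in 4. The 2 peaks of Mir144 and Mir451a and 4 of the 6 at Mir150 were above it, and 2 of the 3 at Mir142 were below it. The peaks nearest to Mir142 and Mir150 were among the weak ones. By their midpoints 7 of the 11 peaks were intergenic, 3 lay in introns and 1 in an exon of Dhrs13os, an antisense gene at the start of Dhrs13. Over all autosomal peaks the shares were 45.5%, 44.1% and 10.4%. The start of a protein-coding gene lay within 1 kb of 5 of them, namely those of Tspoap1, Rpl13a, Flt3l, Aldh16a1 with Pih1d1, and Dhrs13, where 9.39% of all autosomal peaks had one. The 5 windows held 1 to 10 protein-coding genes, where the median autosomal microRNA gene had 1, and the part of gene density in this share was not tested.

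**Figure D4:**
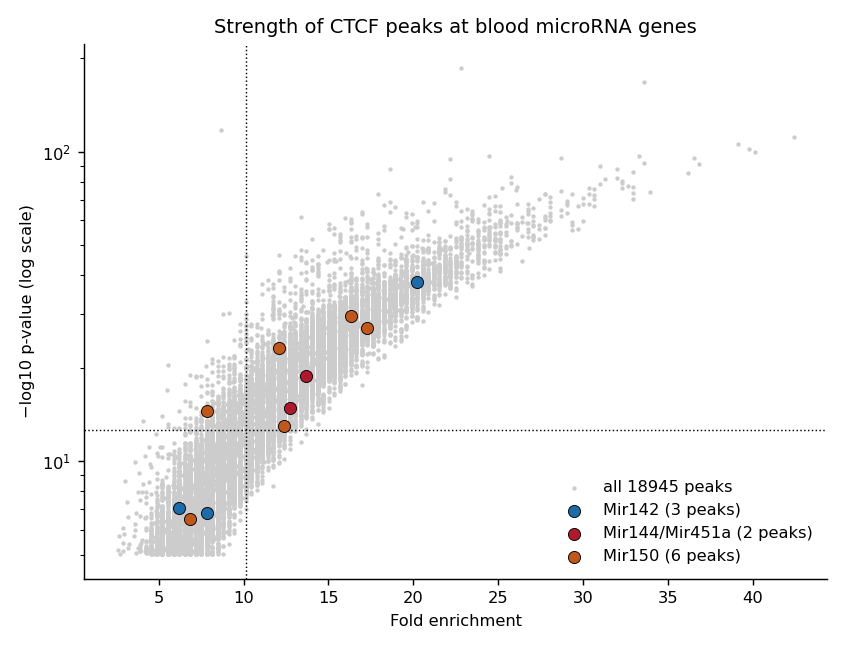
Fold enrichment (x axis) and −log10 p-value on a log scale (y axis) of all 18945 LSK CTCF peaks (grey) and the 11 peaks within 50 kb of the microRNA genes (coloured by locus), with dotted lines at the medians of 10.12 and 12.617. The peak in Tspoap1 near Mir142 is the highest of the 11 (20.23 and 37.968), and 3 of the 11 lie below both medians.

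Repeats made up more than 50% of the bases in 2 of the 11 peaks, those near Mpo and Pih1d1, against 6.19% of all peaks. Both had a fold enrichment of 7.83 and the same best match, CCAGAAGAGGGC, within soft-masked repeat sequence. This word was chosen after it was seen in both. It was present in 1393 of all peaks (7.35%), in 99.2% of these within repeat sequence, and their median fold enrichment was 8.48. The same word was the best match in the Fam222b peak, outside 50 kb, that ends the stretch around Mir144 and Mir451a. The repeat family at Mpo and Pih1d1 was not identified here.

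Just inside the limit of 50 kb lay the peak near Mpo, 48317 bp from Mir142 with a fold enrichment of 7.83. Just outside lay peaks at 51031 bp from Mir150 (7.83), at 52929 bp from Mir144 (15.01), at 53250 bp from Mir150 (6.20) and at 59878 bp from Mir142 (11.09).

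A wider list of 46 autosomal microRNA genes known from blood gave 45 matched records, of which 33 (73.3%, 95% Wilson interval 59.0% to 84.0%) had a peak within 50 kb, against 58.1% of all autosomal microRNA genes. With only the 9473 peaks of highest −log10 p-value the share was 40.0% (27.0% to 54.5%) against 42.1%, so the higher share did not hold there. Clustered genes share peaks, and the 33 had only 20 different nearest peaks. These intervals count every record as separate, so they are too narrow. By role, 8 of 9 myeloid, 11 of 13 lymphoid, 7 of 9 erythroid and megakaryocyte, and 7 of 14 stem and progenitor genes had a peak. In the same order, these genes had only 5, 4, 5 and 6 different nearest peaks. The roles were assigned from general knowledge, and related genes could differ in role. Mir24-1 was listed as erythroid and megakaryocyte but Mir24-2 as myeloid, and Mir29b-1 as stem and progenitor but Mir29b-2 as lymphoid. The differences between the roles were not tested, nor was the part of gene density in the share of the wider list.

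Among the myeloid genes the cluster of Mir24-2, Mir27a and Mir23a lay 1301 to 1630 bp from a peak with a fold enrichment of 15.01 and the core motif without a mismatch, while Mir21a was 69096 bp from its nearest. Among the lymphoid genes Mir342 (905 bp), Mir29c (2632 bp) and Mir29b-2 (3146 bp) were nearest to a peak, while Mir181b-1 and Mir181a-1 were 77673 and 77850 bp away. The cluster that runs from Mir17 to Mir92-1 had a single peak within 50 kb, with a fold enrichment of 8.81. Among the erythroid and megakaryocyte genes Mir191 (960 bp) and Mir425 (1418 bp) shared a weak peak of fold enrichment 6.20. Mir210, a microRNA of the response to low oxygen, was 6560 bp from a strong one (19.90), and Mir16-2 and Mir15b had none within 50 kb.

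Among the stem and progenitor genes, those inside Hox clusters were near peaks, with Mir196a-1 at 3023 bp and Mir10a at 5025 bp in the Hoxb cluster. Mir126a, which lies in an intron of Egfl7, was at 4008 bp. The clusters of the miR-99, let-7 and miR-125 families were farther away. Mir99b, Mirlet7e and Mir125a, on Chromosome 17, shared a nearest peak 63094 to 63718 bp away. Mir99a, Mirlet7c-1 and Mir125b-2, on Chromosome 16, shared another, 63332, 64053 and 110669 bp away. Mir125b-1, on Chromosome 9, lay 106658 bp from its nearest peak. All 7 of these genes had 0 peaks within 50 kb, as Mir155 had.

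**Figure D5:**
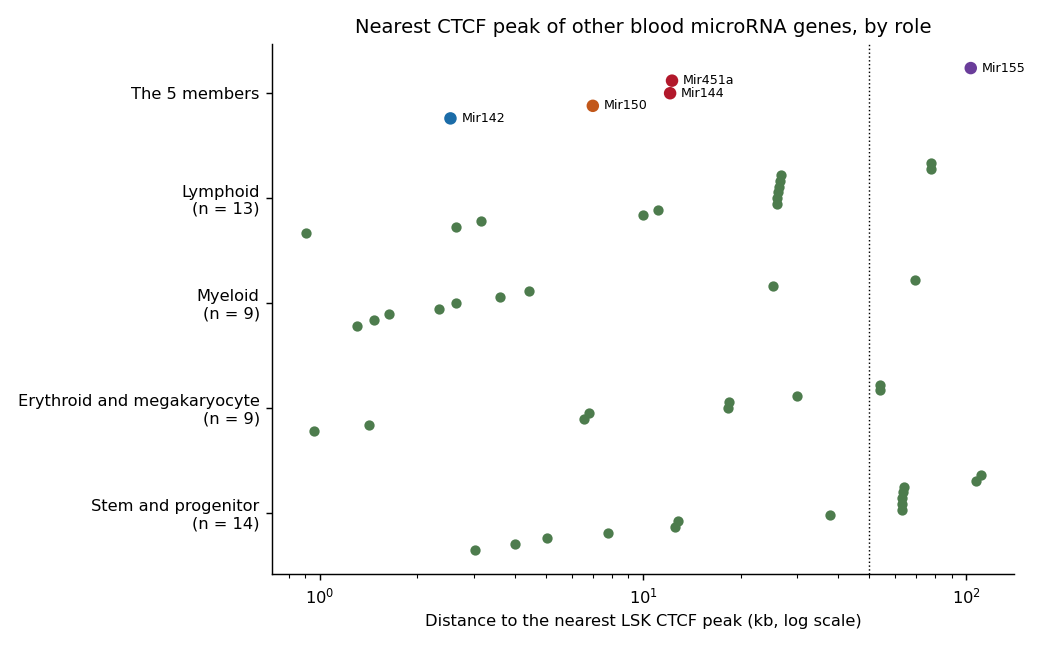
Distance from each microRNA gene to its nearest LSK CTCF peak in kb on a log scale (x axis), for the 5 members and 45 other blood microRNA genes by role (y axis), each point being 1 gene and the dotted line 50 kb. Points in a row that nearly coincide are often clustered genes with the same nearest peak. In the stem and progenitor row, genes of different chromosomes also fall close together, as Mir99b (Chromosome 17) and Mir99a (Chromosome 16) do. In that row 7 of the 14 genes lie beyond the line.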

How the data were processed

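CTCF ChIP-seq of LSK cells gave 1 deposited peak list, and the 2 input libraries were not analysed here. The authors mapped reads to mm10 with Bowtie (1.0.0 in the submitters' processing notes, an earlier version in the study's methods), allowed multiply mapping reads, removed reads on ChrM and unplaced chromosomes, and called peaks with MACS. The sources used here do not give its settings or control. The deposited fold enrichment is a linear ratio and the deposited −log10 p-value starts at 5.001. The deposited false discovery rate (a q-value) was not used. The list has no header, so units were read from its layout and values. Starts were taken as 0-based and printed 1-based.

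Distances, counts, motif matches (12-base CTCF core, both strands) and Wilson intervals were computed with pysam 0.24.0, pandas 2.3.3, scipy 1.17.1 and numpy 2.4.6 under Python 3.11.15, on GRCm38.p6 and GENCODE M21, which share coordinates with mm10. The best match had the fewest mismatches, then lay nearest the peak midpoint. The steps were tested on simulated data. With 1 library no test was run, and shares are descriptions. The members and lists were chosen with earlier results of these data known. Genes named were the members, their hosts and nearest coding genes, genes at their peaks, and in the wider list those nearest to and without a peak. An item that this rule would name is not reported here. The clusters of Mir17, Mir125b-1 and Mir125b-2 and further clustered genes were named after their values were seen. Alternatives were a stricter threshold, other distances, merged peaks or records, coding genes, and other motif settings.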

Additional observations from a re-analysis of the deposited data

How the results depend on the processing

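The distance sets the counts. Within 10 kb there were 2 distinct peaks (median fold enrichment 6.525) at 2 members, and 24.6% of autosomal microRNA genes and 42.2% of the other blood microRNA genes had a peak. Within 100 kb there were 21 peaks at 4 members, and the shares were 69.2% and 95.6%. With the 9473 peaks of highest −log10 p-value, 8 of the 11 peaks were left, 4 members had a peak, and the shares were 42.1% and 40.0% (95% Wilson interval 27.0% to 54.5%), which were not distinguishable. Counting microRNA records less than 10 kb apart as 1 of 1700 loci gave 63.2%, and protein-coding genes gave 77.6%. With 1 mismatch 8 member peaks held the motif in place of 5. By construction, fewer peaks or a narrower window can only lower these counts and shares, and a wider window can only raise them. The sizes of the shifts, and the lower median fold enrichment within 10 kb, were not tested. Why the wider list lost its higher share in the stricter set was not tested. Counts, medians and lengths were taken as unchanged within 1.5 times and shares within their interval, which held for 17 of 30 alternatives. No paired analysis was possible because a single library leaves nothing to pair, and no replicate could be left out.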
